A study of Mus musculus with 18 samples.

Results

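Complex I, the NADH:ubiquinone oxidoreductase, is the largest enzyme of the mitochondrial respiratory chain. Its nuclear genes carry symbols that begin with Nduf. All Nduf genes with a probe set annotated to exactly 1 gene symbol were taken, with the brightest probe set for each gene, which gave 43 of 19937 genes. They comprised 6 core subunits, 28 accessory subunits, 7 assembly factors and 2 genes that belong by symbol only. Expression was measured on 18 Affymetrix arrays hybridised with RNA of brown adipose tissue (BAT), which burns fuel to make heat, and white adipose tissue (WAT), which stores lipid. FXR mice overexpressed human FXR, the bile acid receptor farnesoid X receptor, specifically in adipose tissue, and control mice were wild type. The groups were FXR BAT with 5 arrays, control BAT with 5, FXR WAT with 4 and control WAT with 4. All animals were male C57BL/6J mice aged 10 weeks on chow, and the series text describes the samples within each group as biological replicates. The promoter that drives the transgene and the depot of the WAT are not given in the sources used here.

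The complex has an L shape. Its matrix arm takes electrons from NADH and passes them along a flavin and a chain of iron-sulfur clusters to ubiquinone, and its membrane arm pumps protons. The core subunits do this chemistry, the accessory subunits surround and stabilise them, and the assembly factors join the modules but are absent from the finished enzyme. Further core subunits of the membrane arm are encoded by mitochondrial DNA (the mt-Nd genes), and none of these 7 was among the genes analysed here. In brown fat the chain runs at high rate because the uncoupling protein Ucp1 lets protons back across the inner membrane. Ndufa4 was first described as a complex I subunit and is now assigned to complex IV. Ndufa4l2 is its paralogue and is known as a gene induced by hypoxia.

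Promoter sequence was given by RefSeq (assembly GRCm38.p6) for 38 of the 43 genes, as the 250 bases before and 50 bases from each annotated start. Searches on both strands covered 3 elements named for regulators of nuclear respiratory genes: the NRF-1 palindrome, which is GCGC on either side of the bases AT, a looser form of it with GCGCA, then any base, then GCGC, which includes the palindrome, and the ERR element TCAAGGTCA. The palindrome was present at 3 of 38 members (7.89%), against 290 of 27025 genes with a promoter in the same table (1.07%). The looser form was present at 8 of 38 (21.1%), against 1402 of 27025 genes (5.19%). The ERR element was found at 0 of 38, against 126 of all genes (0.466%). The median GC content of the windows was 59% for the members and 52.67% for all genes, so the windows also differed in base composition. Of the 8 genes with a match, 4 passed the test as lower in FXR BAT, and the match of each is shown in capitals with 10 bases on either side. They lie at chr6:24527697-24527726 (minus strand) for Ndufa5, chr15:82354249-82354278 (minus strand) for Ndufa6, chr2:36049349-36049378 (minus strand) for Ndufa8 and chr4:24897960-24897989 (plus strand) for Ndufaf4. Each is printed in the direction of its gene. For Ndufa6 and Ndufa8 the match is on the opposite strand, so the capitals read as the reverse complement of the looser form.
Ndufa5: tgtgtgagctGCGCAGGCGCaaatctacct
Ndufa6: ccgtggcaccGCGCGTGCGCacgctgaagg
Ndufa8: ctagagcagtGCGCTTGCGCgtcgctggag
Ndufaf4: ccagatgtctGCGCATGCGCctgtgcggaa

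The other 4 genes with a match, Ndufa11, Ndufaf5, Ndufs5 and Ndufs6, did not pass the test in BAT. The 250 bases before the start are printed for Ndufa8, which holds a match, and for Ndufs7, which holds none and had the smallest adjusted p of the members in BAT. They lie at chr2:36049339-36049588 (minus strand) and chr10:80249199-80249448 (plus strand), and the capitals again mark the match.
Ndufa8: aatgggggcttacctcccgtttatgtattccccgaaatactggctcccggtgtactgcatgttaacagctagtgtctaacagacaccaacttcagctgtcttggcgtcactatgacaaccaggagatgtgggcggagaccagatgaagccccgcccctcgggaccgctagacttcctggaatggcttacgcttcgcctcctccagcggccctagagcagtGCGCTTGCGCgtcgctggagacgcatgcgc
Ndufs7: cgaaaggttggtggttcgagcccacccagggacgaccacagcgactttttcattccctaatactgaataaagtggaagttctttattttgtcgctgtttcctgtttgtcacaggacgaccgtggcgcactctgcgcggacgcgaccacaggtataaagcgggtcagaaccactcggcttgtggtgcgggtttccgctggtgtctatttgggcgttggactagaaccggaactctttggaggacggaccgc

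The deposited value is 1 intensity for each probe set and array, and levels are given as log2(intensity + 1). Array medians of intensity lay between 97.6 and 99.9 in FXR BAT, 93.1 and 97.8 in control BAT, 60.5 and 61.5 in FXR WAT, and 60.7 and 61.7 in control WAT. The tissue labels matched the brown adipocyte markers: of 11 measured, 0 were within 1.5-fold of the 1% quantile of intensity on all arrays of a BAT group, against 7 in FXR WAT and 9 in control WAT. Of all 19937 genes, 3897 were so in FXR BAT, 4058 in control BAT, 8994 in FXR WAT and 9509 in control WAT. The median difference of the 11 markers, control BAT minus control WAT, was 4.24 log2 units, against 0.59 for all genes. Mouse Nr1h4, the gene of FXR, had levels of 6.21 to 6.31 in FXR BAT and 6.15 to 6.28 in control BAT, and the human transgene was not measured. Summed intensities of 26 skeletal muscle genes were 3681 to 53156 on FXR BAT arrays, with FXR BAT 1, 2 and 4 high, against 3443 to 13492 on control BAT arrays. The extract text of control BAT 2 and 4 names a feeding period of 6 weeks, which that of the other samples does not. Results in BAT are therefore also given without FXR BAT 1, 2 and 4 and without control BAT 2 and 4.

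In BAT, the genes of complex I were lower in FXR mice than in controls. Of the 43 genes, 30 fell, 1 rose (Ndufa4l2) and 12 did not pass at an adjusted p of 0.05 (limma, Benjamini-Hochberg over all genes, n = 5 and 5). Over all genes tested, 15.8% passed, 8.75% as lower and 7.01% as higher. The differences were small: the median of the 43 was -0.25 log2 units (FXR minus control), against 0.01 for all genes, and the member with the largest fall, the core gene Ndufs8, was 1.40-fold lower. All 6 core genes, 20 of 28 accessory genes and 3 of 7 assembly factor genes fell, with class medians of -0.30, -0.26 and -0.14. The FXR and control arrays did not overlap for 23 genes that were lower, and 6.29% of all genes behaved so. The mean level of the 43 genes per array was 9.72 to 9.91 in FXR BAT and 10.01 to 10.15 in control BAT.

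**Figure D1:**
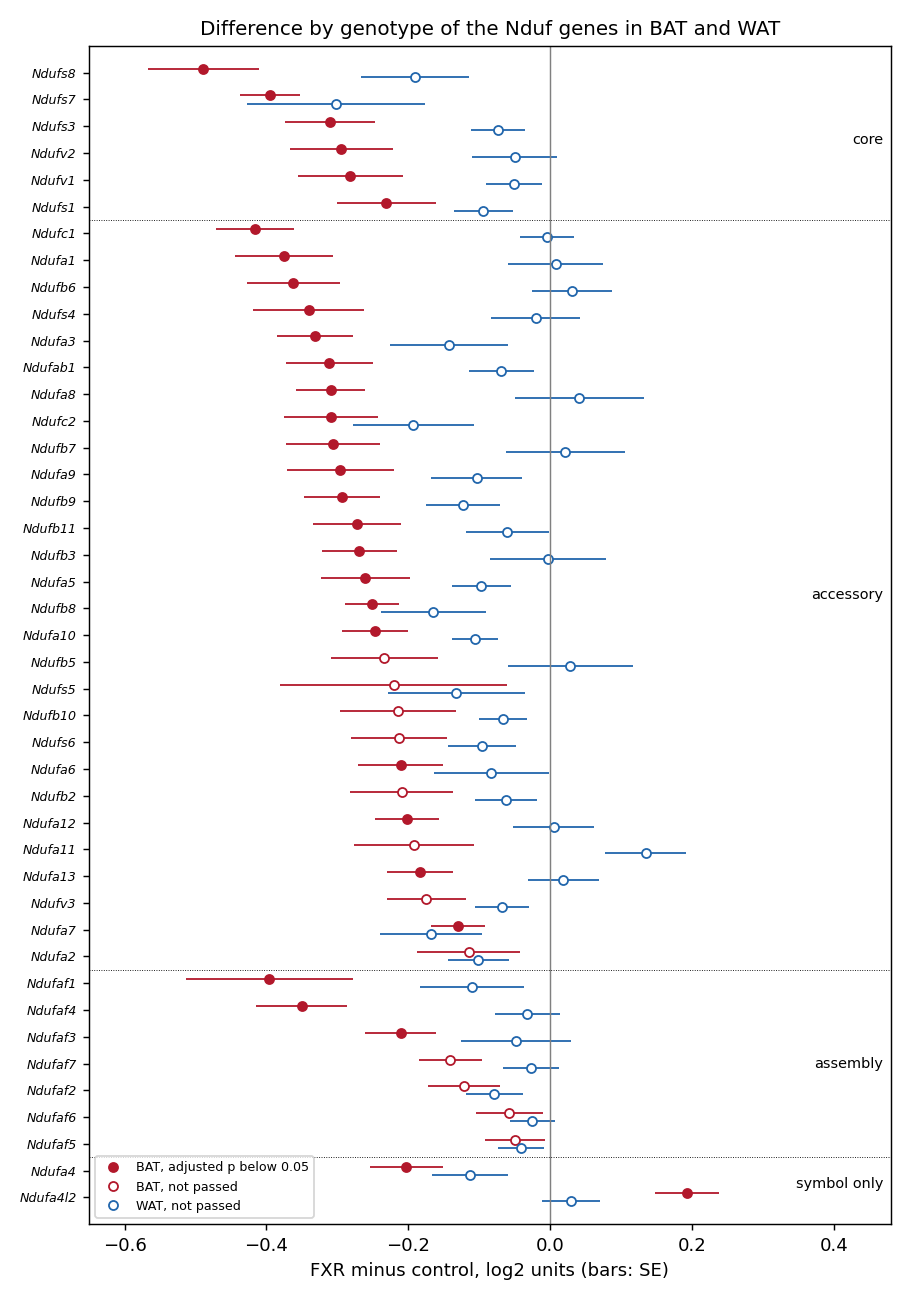
Difference in log2 level, FXR minus control, for each of the 43 Nduf genes in BAT (red) and WAT (blue), with genes grouped by class and bars giving the SE of limma; filled points passed an adjusted p of 0.05. In BAT 42 of 43 points lie left of zero and 31 are filled, and in WAT no point is filled.

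Brightness and scaling bear on this count. Genes as bright as these also tended to be lower in FXR BAT: among 536 other genes above the median member (log2 level 10.12), 266 fell and 10 rose (49.6% lower, median -0.24), while 19 of the 21 members above it fell (median -0.30). In the range from the dimmest member to that median, 1365 of 7380 other genes fell and 562 rose (18.5% lower, median -0.06), and 11 of 22 members fell and 1 rose (median -0.21). After quantile normalization of the BAT arrays, which gives all arrays 1 distribution, 13 members fell and 1 rose, with a median of -0.13, against 6.55% of all genes lower and 5.61% higher. Ndufs3, Ndufs7, Ndufs8, Ndufa1, Ndufa3, Ndufa8, Ndufab1, Ndufb3, Ndufb6, Ndufb11, Ndufc1, Ndufaf3 and Ndufaf4 were the 13. The 101 of 536 bright other genes that fell under that scaling made up 18.8%, and 9 of the 21 bright members fell (median -0.14). In the dimmer range 967 of 7380 other genes fell (13.1%), and 4 of the 22 members there (18.2%).

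Markers of other cell types moved with the groups as well, and their part in the result was not tested. All 15 macrophage genes rose in FXR BAT, with summed intensities of 3707 to 4410, against 1929 to 2616 in control BAT. The 9 measured fibroblast genes also all rose (12545 to 15620 in FXR BAT, against 4793 to 7631 in control BAT). Of 9 measured genes of mature adipocytes, 6 fell, with sums of 26396 to 29535 in FXR BAT and 29778 to 36225 in control BAT. After quantile normalization 1 of these 9 fell, without FXR BAT 1, 2 and 4 it was 2, and without control BAT 2 and 4 it was 3. Of 11 measured brown adipocyte genes 9 fell (19641 to 23359 in FXR BAT, against 27811 to 33655 in control BAT). Of these 11, Cox7a1 and Cox8b are also counted below in complexes II to V, and Ppargc1a among the regulators of mitochondrial gene expression. Among 10 endothelial genes 4 fell and 1 rose, and among the 26 muscle genes 2 rose. None of the markers of these lists was dim on all BAT arrays of both groups, but 1 macrophage gene was dim on all control BAT arrays. In whole tissue, fewer cells of a type and less RNA per cell cannot be told apart. Without FXR BAT 1, 2 and 4 the muscle genes had a median difference of -0.02 and 0 of them passed. Of the 43 Nduf genes 26 then fell, 0 rose and the median was -0.32, against 4.98% of all genes lower and 4.61% higher. That fit keeps FXR BAT 3 and 5 only, and array 5 had the lowest mean level of the 43 genes. The mean was 9.72 on FXR BAT 5 and 9.85 on FXR BAT 3, against 9.86, 9.91 and 9.88 on the arrays left out. The larger median thus rests in part on 1 low array. Without control BAT 2 and 4, 10 Nduf genes fell, 0 rose and the median was -0.21, against 3.57% of all genes lower and 3.53% higher. Leaving out control BAT 4 alone left 23 calls, without a share of all genes to set beside that count.

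The core subunits form the electron path. Ndufv1 carries the flavin that accepts electrons from NADH, and its levels were 10.85, 10.94, 11.14, 11.03 and 10.88 in FXR BAT, against 11.22, 11.39, 11.11, 11.41 and 11.12 in control BAT. FXR BAT 3 lay among the controls, and the gene fell by 0.28 ± 0.07 on the log2 scale (SE, 5 arrays per group, adjusted p = 0.0262, limma). Ndufv2, the neighbouring iron-sulfur subunit, had 11.31, 11.18, 11.12, 11.18 and 10.90 in FXR BAT and 11.30, 11.47, 11.47, 11.55 and 11.37 in control BAT. It fell by 0.29 ± 0.07 (adjusted p = 0.0187, limma), with FXR BAT 1 just above the lowest control. Ndufs1, the largest core subunit, holds further iron-sulfur clusters of the path. Its levels were 11.60, 11.42, 11.74, 11.78 and 11.48 in FXR BAT, against 11.78, 11.87, 11.78, 11.95 and 11.79 in control BAT. FXR BAT 4 lay level with the lowest controls, and Ndufs1 fell by 0.23 ± 0.07 (adjusted p = 0.0458, limma), just inside the threshold. With 1 BAT array left out in turn, that call was lost in 8 of 10 fits, and those of Ndufv1 and Ndufv2 in 5 and 1. Under quantile normalization Ndufv1, Ndufv2 and Ndufs1 did not pass, at -0.13, -0.14 and -0.04.

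The other core subunits lead to the ubiquinone site, and their groups did not overlap. Ndufs7, which holds the last cluster before ubiquinone, had 10.80, 10.86, 10.77, 10.77 and 10.70 in FXR BAT, against 11.30, 11.19, 11.12, 11.16 and 11.12 in control BAT. The spread within each group was small beside the gap, and the gene fell 1.31-fold, by 0.40 ± 0.04 (adjusted p = 1.68e-04, limma). Ndufs8, with a pair of clusters next to Ndufs7, had 10.18, 10.19, 10.05, 10.19 and 9.81 in FXR BAT and 10.69, 10.65, 10.50, 10.60 and 10.42 in control BAT. It fell by 0.49 ± 0.08 (adjusted p = 0.00197, limma). Ndufs3 has no cluster and is part of the ubiquinone module. It had 11.48, 11.54, 11.50, 11.54 and 11.27 in FXR BAT and 11.84, 11.84, 11.77, 11.84 and 11.59 in control BAT, and fell by 0.31 ± 0.06 (adjusted p = 0.00720, limma). On both sides array 5 was the low one. Without FXR BAT 1, 2 and 4, Ndufs8, Ndufs7, Ndufs3 and Ndufv2 fell by 0.64, 0.44, 0.39 and 0.42, and Ndufv1 (-0.24) and Ndufs1 (-0.23) did not pass. Without control BAT 2 and 4, Ndufs7 and Ndufs8 were the 2 core genes that passed.

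**Figure D2:**
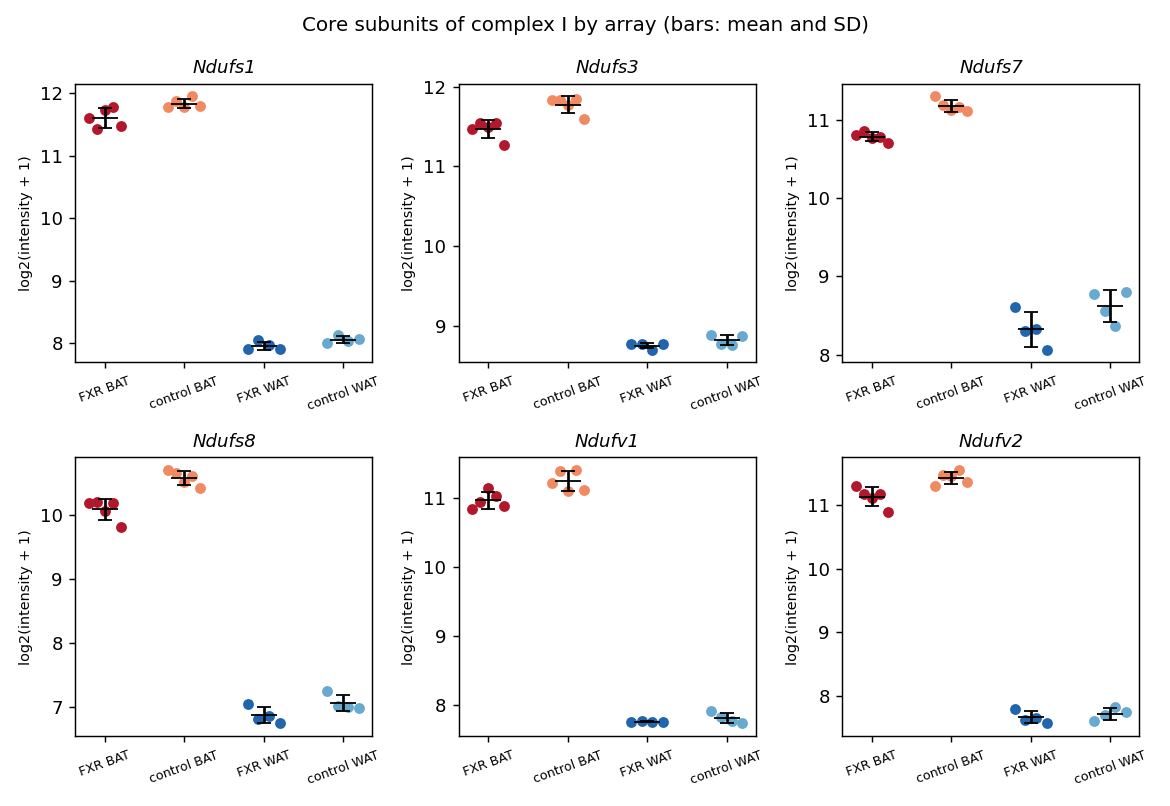
Level, log2(intensity + 1), of the 6 core subunit genes on each of the 18 arrays, with FXR left of control within each tissue; points are arrays and bars give the group mean and SD. In BAT the FXR points of Ndufs3, Ndufs7 and Ndufs8 all lie below the control points, and in WAT the genotypes overlap for each of the 6 genes.

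Among the accessory genes, 13 of 18 of the membrane arm fell (median -0.27), 6 of 9 of the matrix arm (median -0.21), and Ndufab1, which stands in both arms. After quantile normalization 7 of the 18 fell (median -0.14) and 0 of the 9 (median -0.07), and without control BAT 2 and 4 the counts were also 7 and 0 (medians -0.25 and -0.17). Ndufc1, a small subunit of the membrane arm, had 9.93, 9.78, 9.84, 9.98 and 9.75 in FXR BAT, against 10.28, 10.32, 10.36, 10.26 and 10.13 in control BAT. The groups were clearly apart, and Ndufc1 fell by 0.42 ± 0.05 (adjusted p = 5.88e-04, limma). Its other probe set differed by -0.40. Ndufb8, a membrane arm subunit whose protein is often used to follow the amount of complex I, had 10.27, 10.41, 10.29, 10.27 and 10.25 in FXR BAT and 10.48, 10.56, 10.59, 10.58 and 10.53 in control BAT. It did not overlap between the groups (adjusted p = 0.00141, limma) and did not pass after quantile normalization (-0.11). Ndufa8, on the side of the intermembrane space, had 10.40, 10.38, 10.34, 10.43 and 10.22 in FXR BAT and 10.59, 10.75, 10.73, 10.68 and 10.57 in control BAT. It fell by 0.31 ± 0.05 (adjusted p = 0.00172, limma).

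Further membrane arm genes fell with no overlap between the groups. Ndufa3 fell by 0.33 ± 0.05 (adjusted p = 0.00196, limma), with levels of 10.54 to 10.76 in FXR BAT and 10.85 to 11.07 in control BAT. Ndufb6 fell by 0.36 ± 0.07 (adjusted p = 0.00380, limma), with 10.92 to 11.30 in FXR BAT and 11.39 to 11.60 in control BAT. Ndufb9, a subunit of the LYR family that holds an acyl carrier protein, fell by 0.29 ± 0.05 (adjusted p = 0.00404, limma). That acyl carrier protein is Ndufab1, which also serves mitochondrial fatty acid synthesis. Ndufab1 had 10.82, 10.89, 10.74, 10.79 and 10.55 in FXR BAT, against 11.07, 11.10, 11.16, 11.07 and 10.94 in control BAT, and fell by 0.31 ± 0.06 (adjusted p = 0.00595, limma). Its dimmer probe set differed by -0.51. For all 5 members with several probe sets, the sets had the same sign in BAT.

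The threshold fell within a dense run of values. Ndufa7 (-0.13, adjusted p = 0.0428, limma) and the assembly factor gene Ndufaf1 (-0.40, adjusted p = 0.0430, limma) lay just inside it, and each lost its call in 7 of the 10 fits with 1 BAT array left out. Ndufs6 (-0.21, adjusted p = 0.0551, limma), a zinc-binding subunit, Ndufv3 (-0.17, adjusted p = 0.0556) and Ndufaf7 (-0.14, adjusted p = 0.0563) lay just outside. Ndufs5 showed another pattern, and was singled out after its values were seen. Its levels were 9.59, 10.28, 10.11, 9.67 and 10.02 in FXR BAT and 9.80, 10.40, 10.38, 9.87 and 10.32 in control BAT. Arrays 1 and 4 were low in both genotypes, the SD was 0.29 in FXR BAT and 0.30 in control BAT, and the difference of -0.22 ± 0.16 did not pass (adjusted p = 0.428, limma). A probe set annotated to both Ndufs5 and Ndufs5-ps, which was not used here, differed by -0.22 ± 0.08. Whether the spread belongs to the probe set used or to the gene was not tested.

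Of the 7 assembly factor genes, Ndufaf1, Ndufaf3 and Ndufaf4 fell. Ndufaf3 and Ndufaf4 bind each other and help to build the ubiquinone module, and Ndufaf1 belongs to the complex that assembles the membrane arm. Ndufaf4 had 8.24, 8.04, 7.92, 8.08 and 7.92 in FXR BAT, against 8.37, 8.49, 8.46, 8.26 and 8.37 in control BAT. FXR BAT 1 came close to the lowest control without reaching it, and Ndufaf4 fell by 0.35 ± 0.06 (adjusted p = 0.00422, limma). Ndufaf1 had 8.67, 8.62, 9.08, 8.88 and 8.62 in FXR BAT and 8.89, 8.96, 9.37, 9.31 and 9.32 in control BAT. It had the largest difference of the 7, at -0.40 ± 0.12, with groups that overlapped, and it did not pass after quantile normalization (-0.30) or without FXR BAT 1, 2 and 4 (-0.32). The smallest difference was that of Ndufaf5, which in human cells modifies an arginine of the Ndufs7 protein (-0.05 ± 0.04, adjusted p = 0.506, limma).

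The 2 genes outside complex I moved in opposite directions. Ndufa4 had 12.55, 12.60, 12.53, 12.55 and 12.35 in FXR BAT, against 12.75, 12.82, 12.71, 12.71 and 12.61 in control BAT. It fell by 0.20 ± 0.05 (adjusted p = 0.0218, limma), and under quantile normalization it differed by -0.05 and did not pass. Ndufa4l2 had 7.41, 7.20, 7.26, 7.21 and 7.25 in FXR BAT and 7.03, 7.10, 7.00, 7.11 and 7.13 in control BAT. Every FXR array was above every control array, as for 5.89% of all genes, FXR BAT 1 stood highest, and the gene rose by 0.19 ± 0.05 (adjusted p = 0.0149, limma). In the fit without FXR BAT 1, 2 and 4 the difference was 0.18 (adjusted p = 0.0578, limma), and without control BAT 2 and 4 it was 0.21 (adjusted p = 0.0561, limma).

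**Figure D3:**
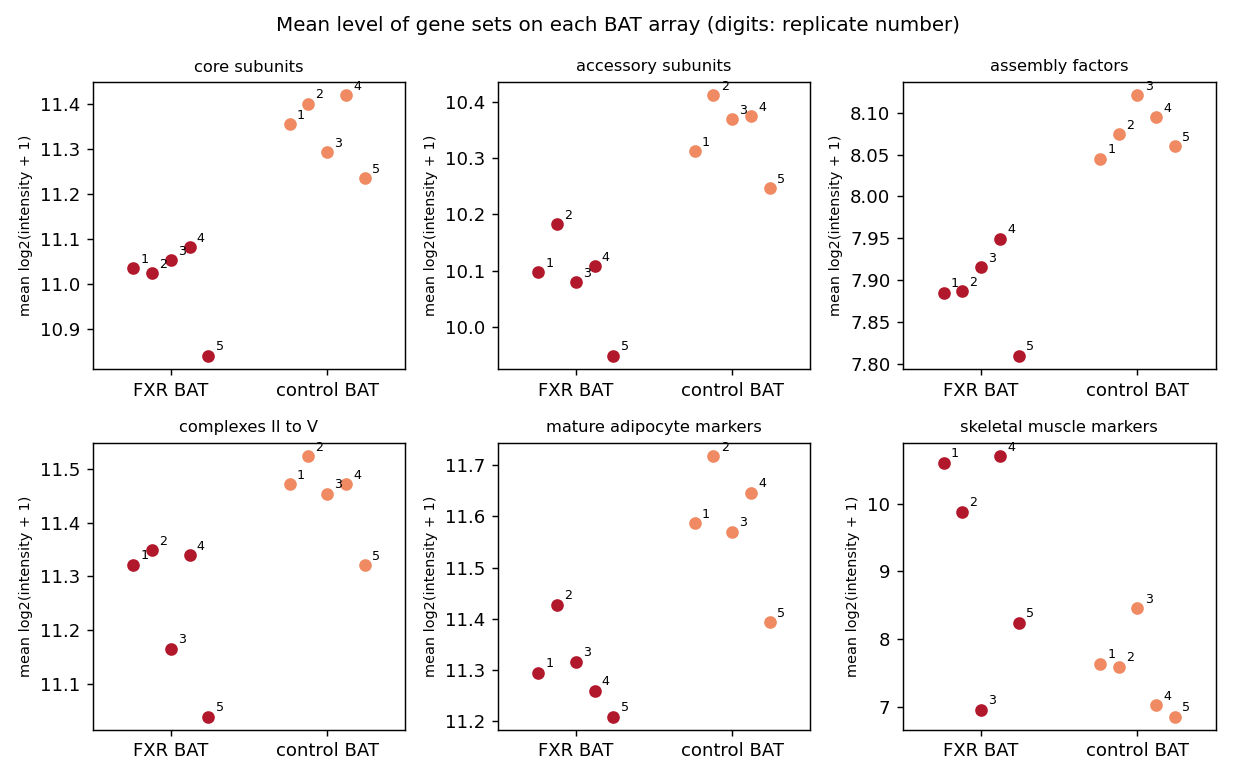
Mean log2(intensity + 1) of the genes of a set on each BAT array (points, with the replicate number), FXR left of control; the vertical axes differ and do not start at 0. The FXR arrays lie below all control arrays for core, accessory and assembly factor genes, FXR BAT 5 is the lowest, and the muscle markers are high on FXR BAT 1, 2 and 4.

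Other genes of the pathway moved with the Nduf genes in BAT. Of 20 listed complex I genes without an Nduf symbol, 12 were measured and 9 of them fell, with a median of -0.23. Foxred1, a flavoprotein assembly factor, fell by 0.45 ± 0.07 (adjusted p = 0.00192, limma), Tmem70 by 0.33 ± 0.06 (adjusted p = 0.00224) and Tmem186 by 0.32 ± 0.05 (adjusted p = 0.00242). Nubpl, which delivers iron-sulfur clusters, differed by -0.04 ± 0.06 and did not pass. Of 40 measured genes of complexes II to V, 26 fell (median -0.24), and of 77 mitochondrial ribosomal protein genes 48 fell (median -0.20). Among 12 regulators of mitochondrial gene expression, 5 fell and 7 did not pass. The coactivator gene Ppargc1a fell by 0.78 ± 0.12 (adjusted p = 0.00195, limma), Esrra, the gene of the receptor ERR alpha, by 0.36 ± 0.07 (adjusted p = 0.00405) and Ppargc1b by 0.46 ± 0.09 (adjusted p = 0.00592). The gene of NRF-1 itself, Nrf1, differed by 0.06 ± 0.06 (adjusted p = 0.640). Without FXR BAT 1, 2 and 4, 5 of the 12 other complex I genes, 33 of the 40 and 41 of the 77 fell, but only 1 of the 12 regulators. After quantile normalization 4 of the 12 other complex I genes (median -0.13), 7 of the 40 (median -0.07), 26 of the 77 (median -0.14) and 4 of the regulators fell. Without control BAT 2 and 4 the counts were 5, 7, 16 and 3.

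In WAT no Nduf gene passed the test with limma (n = 4 and 4), against 1.33% of all genes. There were 10 with an unadjusted p below 0.05 (12.5% of all genes), 34 of 43 differences were below zero (49.2% of all genes), and the median was -0.07, against 0.00 for all genes. Mean levels of the 43 genes were 7.29 to 7.40 in FXR WAT and 7.40 to 7.42 in control WAT. Ndufa10, a membrane arm subunit that resembles a nucleoside kinase, was the member whose groups did not overlap in the lower direction, as did 3.47% of all genes. Its levels were 8.95, 9.04, 8.98 and 8.96 in FXR WAT, against 9.04, 9.11, 9.08 and 9.12 in control WAT (-0.11 ± 0.03, adjusted p = 0.193, limma). The gap between the groups was thus narrow.

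The core gene Ndufs7 had 8.60, 8.30, 8.32 and 8.06 in FXR WAT and 8.77, 8.55, 8.37 and 8.80 in control WAT. Both groups were widely spread, and the difference of -0.30 ± 0.13 (adjusted p = 0.368, limma) had a 95% interval of -0.59 to -0.02. For Ndufs8 the levels were 7.05, 6.82, 6.87 and 6.76 in FXR WAT and 7.25, 7.02, 7.01 and 6.99 in control WAT, a difference of -0.19 ± 0.08 (adjusted p = 0.346, limma). FXR WAT 1 lay above 3 of the 4 controls. The other core genes differed by -0.05 (Ndufv1 and Ndufv2), -0.07 (Ndufs3) and -0.09 (Ndufs1), with intervals whose lower ends were -0.14, -0.19, -0.16 and -0.19. Ndufa2 (-0.10, adjusted p = 0.375, limma) and Ndufa11 (0.13, adjusted p = 0.379, limma) had the next smallest p-values. The assembly factor genes Ndufaf2, Ndufaf5 and Ndufaf6 were within 1.5-fold of the 1% quantile on every WAT array. Differences may be compressed there, which was not tested. Ndufa4 differed by -0.11 ± 0.05 and Ndufa4l2 by 0.03 ± 0.04. None of the 12 other complex I genes, the 77 ribosomal protein genes and the 12 regulators passed in WAT, and 2 genes of complexes II to V fell.

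Whether the difference by genotype was larger in BAT than in WAT was tested directly, over all 18 arrays, which were treated as independent. It passed for 4 of 43 Nduf genes, all with the more negative difference in BAT (6.46% of all genes passed, and 4.44% in that direction), and 21 had an unadjusted p below 0.05, as did 3985 of all 19937 genes (limma). For Ndufc1 the differences by genotype were -0.42 in BAT and -0.01 in WAT, a gap of -0.41 ± 0.07 (adjusted p = 0.00267, limma). Ndufb6 had -0.36 in BAT and 0.03 in WAT, where its levels were 7.19, 7.09, 7.02 and 6.90 in FXR WAT, against 7.02, 7.01, 6.99 and 7.05 in control WAT (gap -0.39 ± 0.09, adjusted p = 0.0161, limma). Both genes encode subunits of the membrane arm. Ndufa1, a small membrane arm subunit, had 10.52, 10.58, 10.51, 10.56 and 10.46 in FXR BAT and 10.94, 11.12, 10.74, 10.98 and 10.74 in control BAT, and its differences were -0.37 in BAT and 0.01 in WAT (gap -0.38 ± 0.10, adjusted p = 0.0334, limma). Ndufaf4 had -0.35 in BAT and -0.03 in WAT (gap -0.32 ± 0.09, adjusted p = 0.0356, limma).

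For the core genes the test of the gap did not pass. The gaps ran from -0.09 (Ndufs7, 95% interval -0.37 to 0.18) to -0.30 (Ndufs8, -0.55 to -0.05), so that neither a like difference in both tissues nor a clearly larger one in BAT was shown for Ndufs7. With other sets of arrays some core genes passed: Ndufs8 and Ndufv2 without FXR BAT 1, 2 and 4, and Ndufs3 without control BAT 5. With the replicate number as a block, Ndufs3 and Ndufs8 passed. Ndufa8 lay just outside the threshold (-0.35 ± 0.10, adjusted p = 0.0522, limma). The median gap of the 43 genes was -0.17, against 0.01 for all genes. Quantile normalization of all 18 arrays left 0 of 43 calls and a median of -0.02, where 4.36% of all genes passed. Without control BAT 2 and 4 only Ndufc1 passed, against 3.65% of all genes. Leaving out control BAT 2, FXR BAT 5, control WAT 4 or FXR WAT 1 left 2 calls each. The shares of all genes that passed were then 4.95%, 5.42%, 5.09% and 4.55%. Leaving out control BAT 5 gave 7 calls, against 7.59% of all genes. Without FXR BAT 1, 2 and 4 there were 9 calls and a median of -0.24, where 6.50% of all genes passed. On the WAT arrays 58.2% to 62.8% of probe sets were dim, against 28.7% to 34.9% on the BAT arrays. Whether this compresses differences in WAT was not tested.

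The tissues themselves differed far more than the genotypes. In control mice all 43 Nduf genes were higher in BAT than in WAT, as were 94.8% of all genes on the deposited scale, and the arrays of the tissues did not overlap for any of the 43, which held in that direction for 92.5% of all genes. The median difference was 2.81 log2 units (BAT minus WAT), against 0.59 for all genes. By class the medians were 3.47 for core genes, 2.86 for accessory genes and 1.74 for assembly factor genes. Ndufb6 had the largest difference, 4.47 ± 0.04 (22.2-fold, adjusted p = 4.54e-14, limma, n = 5 and 4), with 11.39 to 11.60 in control BAT and 6.99 to 7.05 in control WAT. Among the core genes Ndufs1 differed most (3.78 ± 0.04, 13.7-fold, adjusted p = 2.10e-13, limma) and Ndufs7 least (2.55 ± 0.08, 5.87-fold, adjusted p = 1.06e-10). Ndufab1 differed by 3.52 ± 0.04 and Ndufa4 by 3.03 ± 0.05. The assembly factor genes ranged from 1.16 (Ndufaf5) to 1.97 (Ndufaf4), in part with WAT levels at the dim end. Ndufa4l2 had the smallest difference of the 43, 0.76 ± 0.04, close to the median of all genes.

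Because nearly all genes were higher in BAT on the deposited scale, the same difference was also taken after quantile normalization. The median of all genes was then -0.04, 41 of 43 Nduf genes were still called higher in BAT, as were 23.6% of all genes, and their median was 1.34. The class medians became 1.98, 1.37 and 0.58. Ndufb6 then differed by 3.03, Ndufs1 by 2.16 and Ndufs7 by 0.96. The 2 genes that did not pass were Ndufa7 (0.21, adjusted p = 0.0545, limma) and Ndufa4l2, which turned to -0.11 (adjusted p = 0.115, limma).

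In FXR mice the tissue difference had the same direction for all 43 genes, as for 95.1% of all genes, and a median of 2.66 (all genes 0.63). Core, accessory and assembly factor genes had medians of 3.21, 2.71 and 1.66. Ndufs1 differed by 3.64 ± 0.08 (adjusted p = 1.32e-10, limma), Ndufs7 by 2.46 ± 0.09 and Ndufb6 by 4.08 ± 0.08 (adjusted p = 1.09e-10). Without FXR BAT 1, 2 and 4 the median was 2.57. After quantile normalization it was 1.36, with 41 of 43 called higher (21.4% of all genes), and Ndufaf3 (0.14) and Ndufa4l2 (-0.01) did not pass. How the tissue difference itself varied with genotype is the gap tested above.

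**Figure D4:**
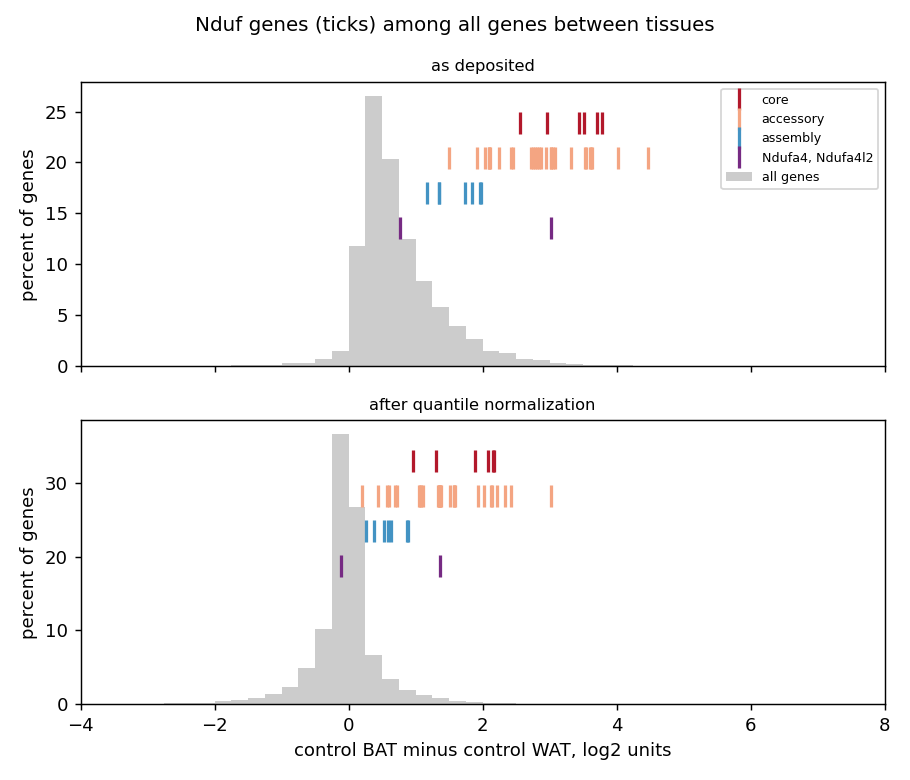
Difference in log2 level, control BAT minus control WAT, as deposited (top) and after quantile normalization (bottom); ticks are the 43 Nduf genes by class, and grey bars are the percent of all 19937 genes in each bin of difference. As deposited the core and accessory genes have medians of 3.47 and 2.86, and after quantile normalization 1.98 and 1.37, with Ndufa7 near zero at 0.21; the assembly factor genes lie lower, and Ndufa4l2 falls below zero after quantile normalization.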

How the data were processed

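Biotin-labelled cDNA from 500 ng of total RNA was hybridised to Affymetrix mouse arrays, per the labels' protocols. The authors deposited 1 linear intensity per probe set and array, from 36.0 to 15980; their background correction, summary and normalization are not given in the sources used here. Of 34760 probe sets, 21640 had 1 symbol in the platform annotation, 1321 several and 11799 none listed. The brightest probe set per gene over all 18 arrays left 19937 genes, and 0 were filtered. Groups were taken from the sample titles and tissue labels. The two-sided tests used limma 3.58.1 under R 4.3.3 (lmFit, then eBayes) on log2(intensity + 1), within each pair of groups, and over 18 arrays for the gap between tissues. Benjamini-Hochberg adjustment covered all genes, and an adjusted p below 0.05 counted as passing. Errors are SEs of limma unless an SD is named. The number of arrays limits the precision, and the p-values reflect no more than the spread among samples of a label.

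The members, the gene lists, and the arrays left out together were chosen with earlier results of these data known. Named were all core genes, Ndufa4, Ndufa4l2 and Ndufab1, the 8 called members with the smallest adjusted p per comparison (with under 8 called, all of them and up to 4 more), calls against the main direction, the assembly factor genes with the smallest and largest change, and members beside the threshold. Other genes and values of further members were chosen after their values were seen. Lists held 20 other complex I genes, 41 of complexes II to V, 77 mitochondrial ribosomal protein genes, 12 regulators and markers of skeletal muscle, macrophages, fibroblasts, endothelium, and mature, brown and white adipocytes. Some lists shared genes, and Retn stood in both the mature and the white-selective adipocyte list. White-selective markers had 1 of 8 genes higher in FXR BAT and 1 higher and 1 lower in FXR WAT. The fit was tested on simulated data. Alternatives were quantile normalization, centring on array medians, an offset of 16, removal of dim genes, a trended robust variance, the mean of probe sets, 1 fit over all arrays, a replicate block, and arrays left out.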

Additional observations from a re-analysis of the deposited data

Results flagged for a closer look

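A single array stood apart from the rest of its group, by Dixon's test at 95%, in 11 of 172 combinations of a member and a group, 7 in BAT and 4 in WAT. Chance alone marks about 1 group in 20. In FXR BAT, array 5 was low for Ndufa4 (12.35, against 12.53 to 12.60 on the other FXR arrays), Ndufb11 (10.14, against 10.36 to 10.43) and Ndufs3 (11.27, against 11.48 to 11.54). Control BAT 5 was low for Ndufs3 (11.59, against 11.77 to 11.84). FXR BAT 1 was high for Ndufa4l2 (7.41, against 7.20 to 7.26) and Ndufaf5 (7.21, against 7.11 to 7.13), and FXR BAT 2 for Ndufb8 (10.41, against 10.25 to 10.29). In WAT, FXR WAT 2 was high for Ndufc1 (7.31, against 7.23 on the other FXR arrays) and FXR WAT 3 low for Ndufs3 (8.70, against 8.76). Control WAT 3 was low for Ndufa8 (8.23, against 8.46 to 8.50), and control WAT 1 was high for Ndufs8 (7.25, against 6.99 to 7.02).

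The difference by genotype differed between the tissues, by a test of the gap itself, for 4 of 43 members (9.30%), against 6.46% of all genes. The gap (BAT difference minus WAT difference) was -0.41 for Ndufc1, -0.39 for Ndufb6, -0.38 for Ndufa1 and -0.32 for Ndufaf4, with adjusted p-values of 0.00267, 0.0161, 0.0334 and 0.0356 (limma). None of the 4 passed after quantile normalization.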

How the results depend on the processing

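The median difference of the Nduf genes in BAT stayed below zero in every setting run, from -0.32 to -0.13. The count of 31 calls, 30 lower and 1 higher, did not hold throughout. After quantile normalization there were 14 calls, 13 lower and 1 higher (median -0.13). Without control BAT 2 and 4 there were 10, all lower, and without FXR BAT 1, 2 and 4 there were 26, all lower (median -0.32). With 1 BAT array left out, counts ran from 23 to 33 and medians from -0.27 to -0.23. The share of all genes called in those fits is not given here, so these counts do not show a change particular to the members. In WAT the count was 0 in every setting, with medians of -0.08 to -0.06 with 1 array left out, and Ndufa4l2 ran from -0.00104 (without control WAT 3) to 0.0596. The gap between tissues, with 4 calls, had 0 (median -0.0169) after quantile normalization, 8 with the replicate block, 1 without control BAT 2 and 4 and 9 (median -0.24) without FXR BAT 1, 2 and 4. Over all genes 6.46% passed in the main fit, and 4.36%, 5.89%, 3.65% and 6.50% in these settings, in that order. With 1 array left out the calls of the gap ran from 2 to 7 and its medians from -0.21 to -0.15. The share of all genes that passed then ran from 4.55% to 8.48%. Quantile normalization turned the gap of Ndufs1 to 0.11, of Ndufs3 to 0.000246, of Ndufs7 to 0.12 and of Ndufa4 to 0.14. With 1 array left out, that of Ndufs7 ran from -0.180 to 0.000453 (without FXR WAT 1), and that of Ndufaf5 from -0.0345 to 0.0217 (without control BAT 3), with 0.00933 without control WAT 3. The cause of these turns was not tested.

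Between control tissues all 43 calls held with 1 array left out (medians 2.76 to 2.87). The median was 1.34 after quantile normalization, 2.18 after centring and 2.72 with an offset of 16. Between FXR tissues it was 1.36 after quantile normalization, 1.98 after centring, 2.57 without FXR BAT 1, 2 and 4 and 2.62 to 2.70 with 1 array left out. Ndufa4l2 turned to -0.11 in controls and -0.0108 in FXR mice after quantile normalization.

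Deviations of samples with the same replicate number correlated from -0.49 to 0.28 over 5 BAT pairs and from 0.0085 to 0.16 over 4 WAT pairs, and 1 BAT and 2 WAT pairs correlated best with their own number, so the numbers were not taken as pairs. With the replicate block 36 members were called in BAT and 0 in WAT. The share of all genes called with the block is not given here, so the 36 do not show a change particular to the members. More probe sets were dim in WAT, and whether differences of dim genes are compressed was not tested.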
